A study of Mus musculus with 6 samples.

Results

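Gamma-delta T-cell identity genes are described here for 8 members: Sox13, Sox4, Etv5, Maf, Zbtb16, Blk, Txk and Cd163l1. Each was found by matching the Ensembl identifier of its row to its symbol in GENCODE M21, and all 8 had a row among the 21135 genes listed. They were picked by name for their known place in this lineage, and the segments of the antigen receptor loci were left out. RNA came from DN3 thymocytes, mouse thymic precursors that lack CD4 and CD8, carry CD25 and rearrange their receptor genes. The strain of every library was C57BL/6. The control group was 3 libraries wild type for NMe, the Notch-bound distal enhancer of Myc. The other group was 3 libraries in which GATA sites 1 and 2 of that enhancer are mutated on both alleles. No further allele or treatment is labelled in either group. The labels give neither age nor sex, nor whether the mutants descend from 1 founder, nor whether the 3 libraries of a genotype were taken from separate animals; p-values then measure only the spread between these libraries.

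Thymic precursors at the DN3 stage can take either the alpha-beta or the gamma-delta route. A strong signal from a gamma-delta receptor, passed on through ERK, the EGR factors and Id3, favours the second, and a set of high-mobility-group and other transcription factors then sets the cytokine that the cell will make. Sox13, Sox4, Etv5, Maf and Zbtb16 encode factors of that set, Blk and Txk encode tyrosine kinases of lymphocyte receptor signalling, and Cd163l1 encodes a scavenger receptor, also called Scart1, found on gamma-delta cells.

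Of the 8 genes, 6 rose in the mutant: Sox13, Etv5, Maf, Blk, Txk and Cd163l1. Their mean levels were 1.52-fold to 2.59-fold those of the wild type. Sox4 did not pass the test, and Zbtb16 was too rare to be tested. The test was limma's two-sided comparison of log2(normalised read count + 1) with Benjamini-Hochberg adjustment over the 17815 genes whose mean reached 10, and a gene was called at an adjusted p under 0.05. Of the 7 tested members 6 were called higher and 0 lower, where 18.8% of all tested genes were called, 7.94% higher and 10.9% lower. The median log2 change was 0.94 over the 7 tested members and 0.03 over all tested genes. In the same 6 members every mutant library lay above every wild-type library, a separation that 38.3% of the tested genes showed, 18% upwards and 20.3% downwards. Count models on the recovered reads also called 6 members higher, where edgeR called 18.4% of its tested genes (8.2% higher, 10.2% lower) and DESeq2 24.4% (11.1% higher, 13.3% lower). In a bulk sample, more cells of a type and more RNA per cell cannot be told apart.

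**Figure D1:**
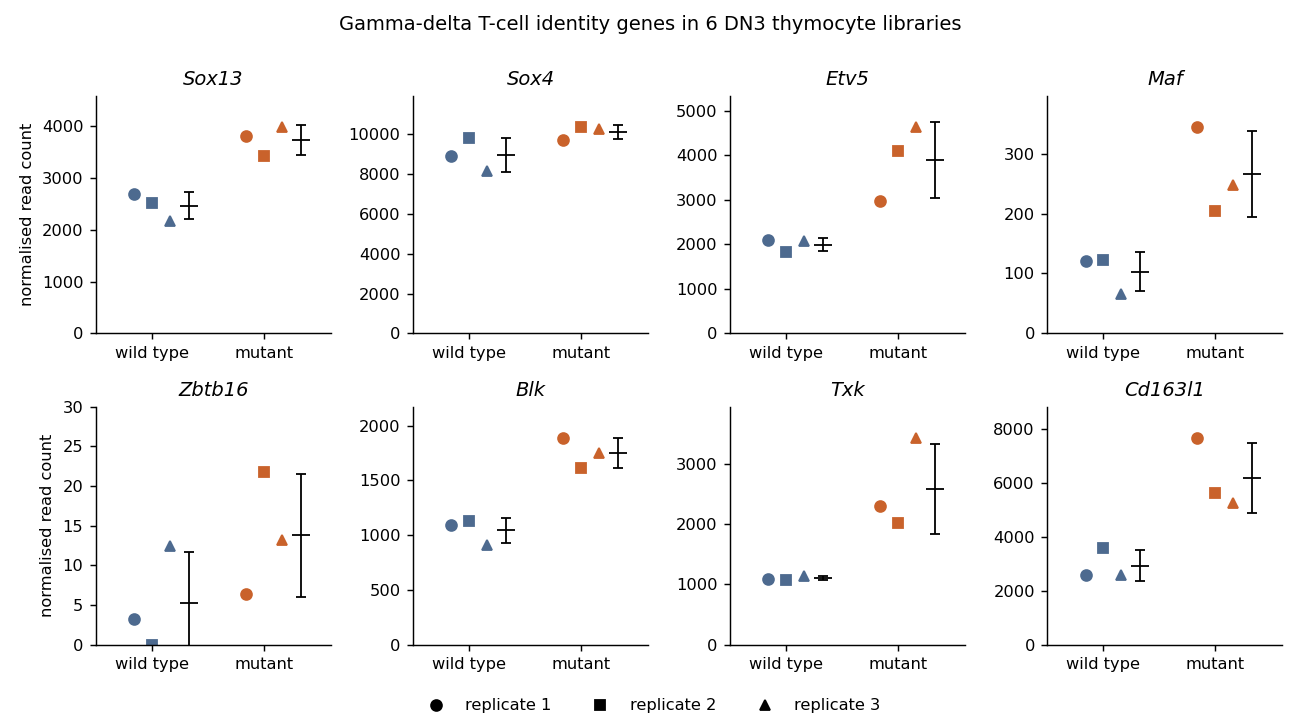
Normalised read count (vertical axes, from 0) of the 8 genes in the 3 wild-type (blue) and 3 mutant (orange) libraries, with marker shape giving the replicate number and black bars the mean ± SD; the lower bar of Zbtb16 in the wild type runs below 0 and is cut at the axis. The genotypes separate in 6 genes and overlap in Sox4 and Zbtb16.

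Myc, the gene that NMe serves, was 3.52-fold lower in the mutant (19153 ± 1079 to 5446 ± 783 normalised reads, SD, n = 3 each, limma adjusted p = 4.22e-05). The libraries held 38.6 to 51.3 M recovered reads. Defining genes of the DN3 stage were abundant. Il2ra, which encodes CD25, ranged from 55810.1 to 61246.6 normalised reads in wild-type libraries against 96836.8 to 110890 in mutant ones. It rose 1.80-fold (limma adjusted p = 0.000364). Ptcra, which encodes the pre-T-cell receptor alpha chain, ranged from 16260.2 to 27036.6 over all libraries and did not pass. Of 4 genes of the later double-positive stage, Cd4 ranged from 53.0 to 85.4 in wild-type libraries against 24.4 to 39.7 in mutant ones. Cd8a ranged from 32.9 to 55.4 against 20.1 to 32.6, and Cd8b1 from 133.6 to 146.1 against 155.7 to 206.8. None of these passed the test, although the genotypes did not overlap in any of them. The other, Arpp21, was abundant (29636 to 45496) and rose (log2 change 0.41 ± 0.09, limma adjusted p = 0.0139), a call that failed without wild-type replicate 1 or mutant replicate 2. Over all tested genes 1414 rose and 1938 fell, and the split was 1827 to 1647 when every library was rescaled to the same total.

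Sequence before the start site is shown for the members that a RefSeq table on GRCm38.p6 held, since 4 of them rose together and Sox4 did not, and since the mutated enhancer sites are GATA motifs. Each window runs 5′ to 3′ on the gene's strand over up to 250 bases and stops at the outermost GENCODE start. Capitals mark matches, on either strand, to 9 motif groups. GATA factors were searched as AGATAA and also as TGATAA, and the pair of MYC and MAX as CACGTG. E proteins were searched as CAGCTG and also as CAGGTG, and RBPJ, which carries Notch signals to DNA, as TGGGAA. RUNX factors were searched as TGTGGT, ETS factors as CCGGAA and the factors TCF and LEF as ACAAAG. SOX factors were searched as ACAAT, and the dimer AP-1 as TGANTCA. No match overlapped another. The windows lie at chr1:133424378-133424462 (Sox13, minus strand), chr16:22439720-22439820 (Etv5, minus), chr7:140218017-140218266 (Cd163l1, plus), chr5:72752778-72753027 (Txk, minus) and chr13:28953714-28953949 (Sox4, minus).
Sox13: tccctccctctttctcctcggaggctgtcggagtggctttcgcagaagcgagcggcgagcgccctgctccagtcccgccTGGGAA
Etv5: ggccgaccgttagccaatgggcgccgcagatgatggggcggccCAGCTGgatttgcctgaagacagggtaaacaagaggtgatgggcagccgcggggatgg
Cd163l1: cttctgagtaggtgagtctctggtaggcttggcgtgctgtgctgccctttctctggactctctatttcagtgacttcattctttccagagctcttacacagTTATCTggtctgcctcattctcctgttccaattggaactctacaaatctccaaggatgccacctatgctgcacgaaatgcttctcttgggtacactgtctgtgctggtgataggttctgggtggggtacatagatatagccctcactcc
Txk: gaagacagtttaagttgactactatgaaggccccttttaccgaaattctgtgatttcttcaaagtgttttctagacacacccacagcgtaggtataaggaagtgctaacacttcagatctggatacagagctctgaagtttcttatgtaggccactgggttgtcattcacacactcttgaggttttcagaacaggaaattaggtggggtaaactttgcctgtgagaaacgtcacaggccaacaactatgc
Sox4: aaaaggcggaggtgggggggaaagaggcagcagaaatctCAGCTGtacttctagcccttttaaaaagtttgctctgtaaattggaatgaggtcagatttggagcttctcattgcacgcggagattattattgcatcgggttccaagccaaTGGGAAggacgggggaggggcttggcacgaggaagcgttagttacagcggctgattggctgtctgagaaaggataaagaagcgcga
Cd163l1 held the one GATA match, AGATAA read from the other strand, which 16.6% of all 32851 windows of that length hold. Sox13 held 1 RBPJ match (8.06% of windows of that length) and Etv5 1 E-protein match (11.98%). Sox4 held 1 match of each of these groups (20.5% and 26.3%), and Txk none of the 9. The 4 members that rose and had a window shared no searched motif. The windows of Sox13 (85 bases) and Etv5 (101 bases) are too short for a conclusion from that. GC content was 67.1% for Sox13 and 64.4% for Etv5, against 48.8% for Cd163l1 and 42.8% for Txk.

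Sox13 (ENSMUSG00000070643.11, chr1:133382303-133424377, minus strand, GRCm38) encodes an HMG-box factor of the SOXD group, known as an early marker of the gamma-delta lineage and as an antagonist of TCF1. Its normalised read count was 2698, 2513 and 2179 in wild-type replicates 1, 2 and 3 and 3810, 3426 and 3994 in mutant replicates 1, 2 and 3. The lowest mutant library stood above the highest wild-type library. The change from 2463 ± 263 to 3743 ± 290 (SD, n = 3 each) was 1.52-fold, with a log2 change of 0.61 ± 0.12 (SE) (95% interval 0.35 to 0.87, limma adjusted p = 0.00639). Sox4 (ENSMUSG00000076431.4, chr13:28948919-28953713, minus), a SOXC factor needed for gamma-delta cells that make interleukin-17, was the exception among the tested members. Its counts were 8901, 9837 and 8165 in wild-type libraries against 9733, 10396.1 and 10274.1 in mutant ones, and the highest wild-type library lay within the mutant range. Its log2 change was 0.18 ± 0.10 with an interval of -0.04 to 0.40 (limma adjusted p = 0.226).

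Neither SOX relative tested was called higher. Sox12, the other SOXC gene tested, fell 5.31-fold, from 249.2, 357.1 and 124.6 in the wild type to 40.1, 22.6 and 75.0 in the mutant (log2 change -2.42 ± 0.47, limma adjusted p = 0.00685). Sox5, the other SOXD gene tested, was rare (48.8 ± 27.9 and 46.9 ± 35.2) and had an interval of -1.62 to 1.17. Per length of exon, Sox13 was at 33.7%, 28.4% and 29.7% of Sox4 in wild-type libraries against 43.5%, 36.6% and 43.2% in the mutant libraries. That ratio was higher in all 3 mutant libraries, and an exact two-sided permutation test over the 6 libraries gave p = 0.1, the smallest value that 3 against 3 allows.

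Etv5 (ENSMUSG00000013089.15, chr16:22381309-22439719, minus) encodes an ETS factor of the PEA3 group that is induced by ERK signalling and is known for a part in interleukin-17-producing gamma-delta cells. Its counts were 2094, 1821 and 2063 in wild-type libraries against 2962, 4088 and 4639 in mutant ones. All mutant libraries were above all wild-type libraries, and the mutant libraries were spread more widely relative to their mean (coefficient of variation 21.9% against 7.51%). The level rose 1.96-fold (log2 change 0.94 ± 0.16, limma adjusted p = 0.00326). Its PEA3 relatives were rare: Etv1 averaged 29.97 ± 9.14 in wild-type libraries against 24.8 ± 13.0 in mutant ones (limma adjusted p = 0.654), and Etv4, with means of 5.37 and 11.2, was not tested.

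Maf (ENSMUSG00000055435.6, chr8:115682942-115707794, minus) encodes a large MAF factor required for interleukin-17 production by gamma-delta cells. Per exon length it was the rarest of the tested members, and its counts were 120.9, 122.2 and 64.9 in wild-type libraries against 345.1, 204.6 and 248.2 in mutant ones. The genotypes did not overlap, and wild-type replicate 3 was lowest. It rose 2.59-fold from 102.7 ± 32.7 to 266.0 ± 71.9 (log2 change 1.39 ± 0.30, limma adjusted p = 0.0114). Without the mean-variance trend in limma the call was just lost (adjusted p = 0.0508). The small MAF genes, which lack a transactivation domain, did not pass: log2 changes were -0.42 ± 0.40 for Maff, -0.11 ± 0.14 for Mafg and -0.16 ± 0.13 for Mafk. On the opposite strand the antisense gene Gm15655 overlaps Maf, the lincRNA gene Gm26735 overlaps Sox4 and the pseudogene Gm43717 overlaps Txk. None of these overlapping genes had a row among the listed genes. The library kits do not record strand, so reads of such partners cannot be told apart.

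Zbtb16 (ENSMUSG00000066687.5, chr9:48654297-48836222, minus) encodes PLZF, the BTB zinc-finger factor of innate-like T cells and of some gamma-delta subsets. It was close to absent, with 3, 0 and 14 reads in wild-type libraries against 6, 24 and 12 in mutant ones before scaling. The genotypes overlapped, since after scaling wild-type replicate 3 (12.5 normalised reads) lay above mutant replicate 1 (6.33). In sum, 17 reads against 42 gave a ratio of 2.6 after scaling, with an exact Clopper-Pearson interval at 95% of 1.45 to 4.87 that covers counting error only. Its mean was below the minimum of 10, and with no filter on low values it did not pass (log2 change 1.80, limma adjusted p = 0.233). That log2 change is larger than the ratio of 2.6 gives, since wild-type replicate 2 held 0 reads. Among BTB zinc-finger relatives, Patz1 (log2 change 0.88 ± 0.13) and Zbtb20 (0.85 ± 0.13) rose with limma adjusted p of 0.00154 and 0.00177. Zbtb7a, Zbtb17, Bcl6, Zbtb1 and Zbtb32 did not pass, with log2 changes from 0.01 to 0.38.

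Blk (ENSMUSG00000014453.4, chr14:63372836-63417037, minus) encodes a SRC-family kinase, best known from B cells, that gamma-delta cells need to make interleukin-17. Its counts were 1088, 1127 and 912.8 in wild-type libraries against 1888, 1612 and 1747 in mutant ones. The libraries of the genotypes did not overlap, and within each genotype the coefficient of variation was low (10.9% and 7.90%). Blk rose 1.68-fold (1043 ± 114 to 1749 ± 138, log2 change 0.75 ± 0.13, limma adjusted p = 0.00376). Lck and Fyn, the SRC kinases of alpha-beta receptor signalling, had smaller log2 changes: 0.32 ± 0.09 for Lck (limma adjusted p = 0.0386, a call kept in 13 of 20 alternatives and lost on leaving out any library but mutant replicate 3, at up to 0.122) and 0.49 ± 0.10 for Fyn (limma adjusted p = 0.00685, lost at 0.0557 without wild-type replicate 1 and mutant replicate 3). Per length, Blk was at 1.21%, 1.27% and 1.08% of Lck in wild-type libraries against 1.58%, 1.46% and 1.76% in mutant ones (exact permutation p = 0.1, the smallest possible). Lyn, Fgr and Yes1 did not pass, with log2 changes of -0.03, -0.10 and 0.01.

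Txk (ENSMUSG00000054892.14, chr5:72695978-72752777, minus) encodes a TEC-family kinase of T cells, also called RLK. Its counts were 1089, 1070.4 and 1137 in wild-type libraries against 2296, 2013 and 3429 in mutant ones. Wild-type libraries agreed closely, with a coefficient of variation of 3.13%, whereas mutant replicate 3 stood above the other mutant libraries (29.1%). The rise was 2.35-fold (log2 change 1.19 ± 0.18, limma adjusted p = 0.00187), and without mutant replicate 3 the log2 change was 0.97. Tec, which lies 2.94 kb from Txk, rose by 0.54 ± 0.13 (limma adjusted p = 0.0169), a call that failed without wild-type replicate 3 (0.0542) and without the mean-variance trend (0.0778). The B-cell kinase gene Btk had a log2 change of -0.89 ± 0.30 (limma adjusted p = 0.0663, called lower by DESeq2 alone). Per length, Txk was at 11.2%, 11.1% and 13.4% of Tec in wild-type libraries against 14.5%, 15.2% and 29.4% in mutant ones, without overlap (exact permutation p = 0.1).

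Cd163l1 (ENSMUSG00000025461.11, chr7:140218267-140231145, plus) belongs to the scavenger receptor cysteine-rich family. Its counts were 2588, 3588 and 2579 in wild-type libraries against 7658, 5625 and 5253 in mutant ones. Each mutant library was above each wild-type library, and the rise was 2.12-fold (2919 ± 580 to 6178 ± 1290, log2 change 1.08 ± 0.17, limma adjusted p = 0.00231). Its neighbour on chromosome 7, 5830411N06Rik, also called Scart2, lies 16.1 kb further on and did not pass: 13037.6, 11123.5 and 7063 in wild-type libraries against 9305, 10919.5 and 6565 in mutant ones (log2 change -0.21 ± 0.23, interval -0.72 to 0.31). Per length, Cd163l1 was at 28.5%, 46.3% and 52.5% of 5830411N06Rik in wild-type libraries against 118%, 74.0% and 115% in mutant ones. The ratio did not overlap between genotypes (exact permutation p = 0.1). Of 7 such ratios between a member and a relative, chosen after the values were seen, 6 did not overlap between genotypes (Benjamini-Hochberg adjusted p = 0.117 for each) and 1 did (exact permutation p = 0.4). Reads shared between related receptor genes may be split differently by the authors' counting, so values of this pair carry that uncertainty. Cd5 and Cd6, lymphocyte receptors of the same family, rose by 1.03 ± 0.13 and 0.76 ± 0.12 (limma adjusted p = 0.000901 and 0.00271). Cd163 (0.49 ± 0.21), Ssc4d and Dmbt1 did not pass.

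**Figure D2:**
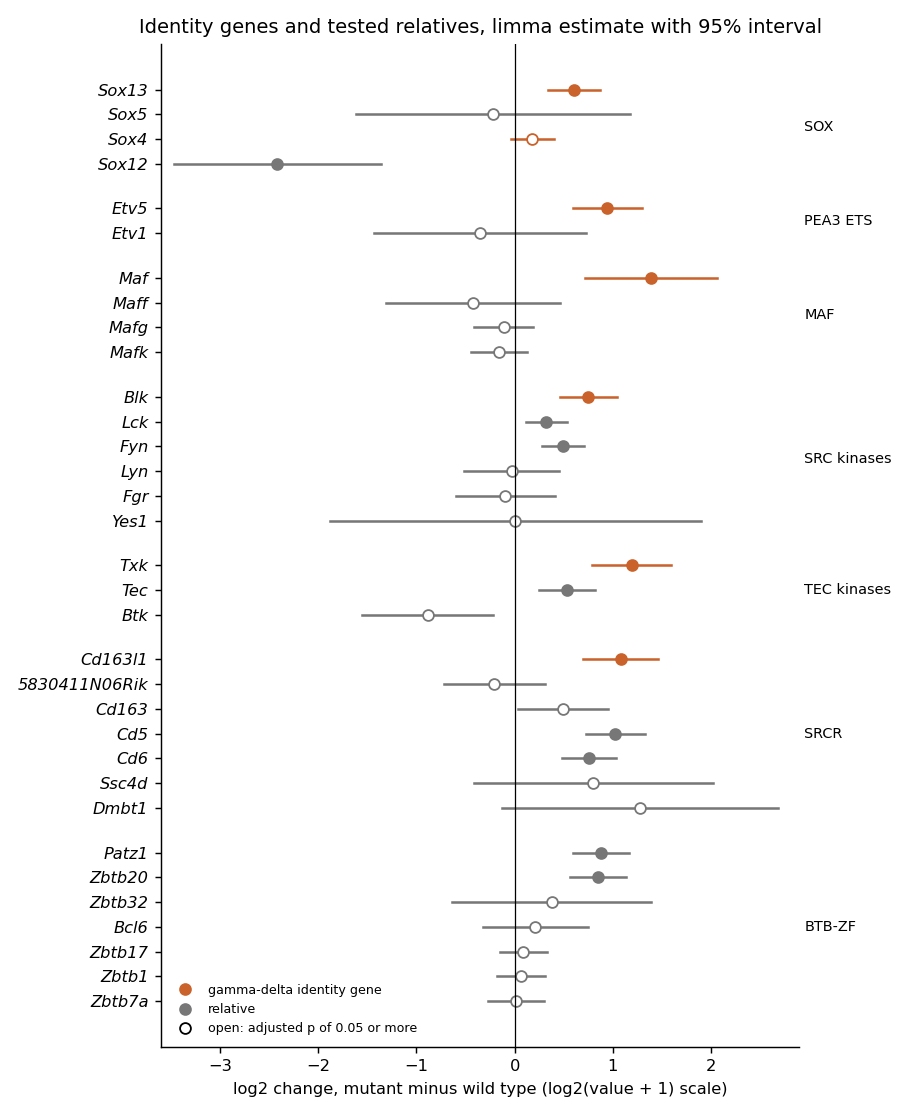
Log2 change (horizontal axis, mutant minus wild type) with 95% interval from limma for the tested identity genes (orange) and relatives (grey), filled where the adjusted p was under 0.05 and open otherwise. Among the filled relatives drawn, Sox12 lies lowest at -2.42 and Cd5 highest at 1.03.

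Compared per kilobase of exon, the order of the wild-type levels was Sox4 (1870 ± 175 normalised reads per kb), Cd163l1 (757.9 ± 151), Sox13 (571.3 ± 61.0), Etv5 (485.7 ± 36.5), Blk (386.4 ± 42.2), Txk (100.3 ± 3.14), Maf (12.5 ± 3.97) and Zbtb16 (0.987 ± 1.23, SD, n = 3 each). Between neighbours in this order, only the libraries of Sox13 (505.3 to 625.6) and Etv5 (443.8 to 510.4) overlapped. In the mutant, Etv5 (949.7 ± 208) moved ahead of Sox13 (868.1 ± 67.2), again with overlapping libraries, and the other ranks were as in the wild type. The gap between Sox4 and Cd163l1 narrowed to 2114 ± 73.6 against 1604 ± 336. These levels rest on the summed length of all annotated exons of a gene, so a gene with a long seldom-used exon is set too low.

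**Figure D3:**
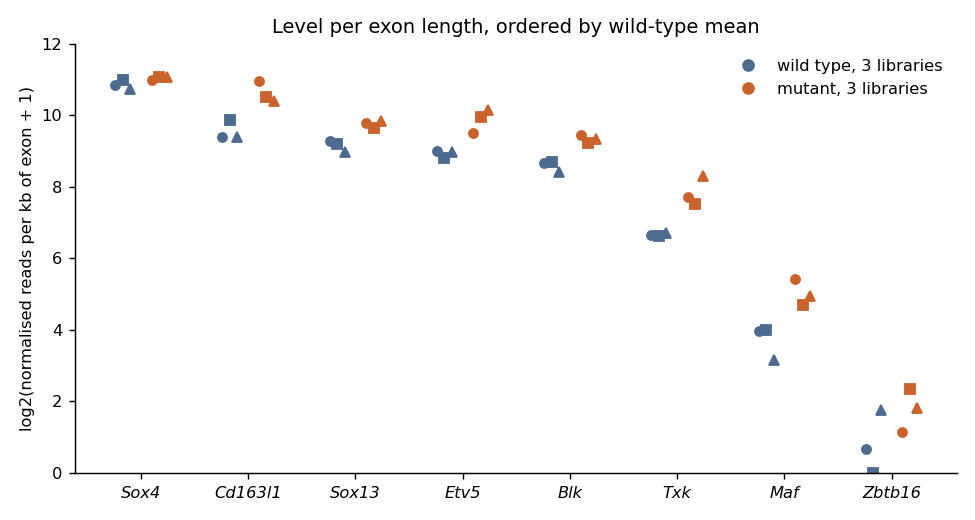
Level per exon length on a log2(normalised reads per kb + 1) axis for the 8 genes, ordered by their wild-type mean, with 3 wild-type (blue) and 3 mutant (orange) libraries each and marker shape giving replicates 1 (circle), 2 (square) and 3 (triangle). Sox4 is highest near 1870 reads per kb in the wild type and Zbtb16 lowest near 1.

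Single libraries did not rank alike across the members. In the mutant, replicate 1 was highest for Blk, Maf and Cd163l1, replicate 3 for Sox13, Etv5 and Txk, and replicate 2 for Sox4. In the wild type, replicate 3 was lowest for 5 of the 7 tested members. The genes of immediate early and heat shock responses, known to react to how cells are handled, differed between libraries too: the summed normalised reads of 8 of them were 573558, 281580 and 272089 in wild-type libraries against 506641, 408313 and 747133 in mutant ones. The list holds Fos, Jun, Junb, Ier2, Dusp1, Atf3, Hspa1a and Hspa1b. Ier2 rose (log2 change 0.80 ± 0.24, limma adjusted p = 0.0455), a call kept in 11 of 20 alternatives, and the other 7 did not pass (median of the list 0.62). The part of handling in the rise of the members was not tested. Without wild-type replicate 1 and mutant replicate 3, the library of each genotype with the highest such sum, the same test called 6 members higher. In the libraries left, the mutant sums (506641 and 408313) stood above the wild-type sums (281580 and 272089). That removal therefore cannot separate handling from genotype. Wild-type replicate 2 held 6509 normalised reads of 3 red-cell genes, against 15.1 to 53.8 in every other library, and 6 members were also called without it.

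**Figure D4:**
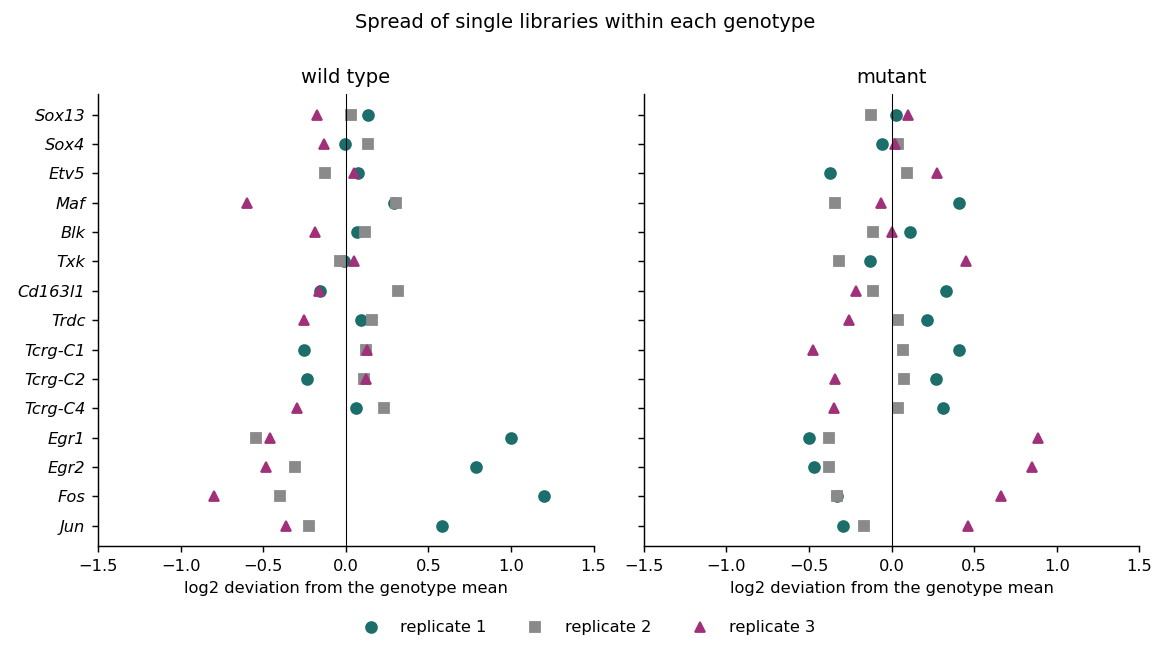
Deviation of each library from the mean of its genotype on the log2(value + 1) scale, wild type on the left and mutant on the right, for the 7 tested identity genes, the 4 receptor constant genes and the response genes Egr1, Egr2, Fos and Jun, with marker and colour giving the replicate. Mutant replicate 1 lies highest for Blk, Maf, Cd163l1 and the receptor constant genes, and mutant replicate 3 for Sox13, Etv5, Txk and the response genes.

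The constant genes of the gamma-delta receptor, which are no members, rose with them. Trdc, the delta constant gene, had 10154.4, 10676.6 and 8015 normalised reads in wild-type libraries against 19337, 17111 and 13931.5 in mutant ones (1.75-fold, log2 change 0.80 ± 0.14, limma adjusted p = 0.00436). The gamma constant genes Tcrg-C1, Tcrg-C2 and Tcrg-C4 rose by 0.78 ± 0.20, 0.55 ± 0.16 and 0.90 ± 0.17 (limma adjusted p = 0.0219, 0.0348 and 0.00641). The call of Tcrg-C1 failed without wild-type replicate 1, mutant replicate 1 or mutant replicate 2 (up to 0.0805), and that of Tcrg-C2 without these or wild-type replicate 2 (up to 0.118). Tcrg-C1 and Tcrg-C2 are near-identical copies and can share reads. The sum of the 4 genes was 97970.4, 118717 and 106467 in wild-type libraries against 220856, 184771 and 137107 in mutant ones, highest in mutant replicate 1. Transcripts of these constant genes are made in DN3 cells at large as well as in gamma-delta cells, and their part in the rise of the members was not tested.

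Markers of other cell types were read in the same libraries, and no gene of the B-cell, NK, myeloid, red-cell or epithelial lists was called. For B cells, where Blk is also known, 5 of 8 markers had values: Cd79a did not exceed 38.0 normalised reads in any library, while Cd79b made up most of the summed level (2358 to 2797 in wild-type libraries against 2452 to 3875 in mutant ones). For NK and innate lymphoid cells 4 of 6 had values, with sums of 9291 to 10292.8 and 9856 to 13831 that were mostly Gzma. For myeloid and dendritic cells 6 of 8 had values, with sums of 1228 to 1770 and 1311 to 2248 that were mostly Lyz2, and Csf1r did not exceed 14.8. For epithelium 2 of 5 had values, Epcam (4101 to 7178 over all libraries) and Psmb11 (at most 9.05). Trac, the alpha constant gene and a marker of mature T cells, ranged from 138.5 to 224.8 in wild-type libraries against 256.0 to 296.5 in mutant ones (limma adjusted p = 0.07), so that the genotypes did not overlap although the test was not passed. Of 5 genes of the earlier DN2 stage Bcl11a fell without overlap (-1.34 ± 0.24, limma adjusted p = 0.00452), and the other 4 did not pass. Kit (-0.43 ± 0.15) and Spi1 (-0.65 ± 0.30) were lower in the mutant, each without overlap between genotypes. Lyl1 (0.69 ± 0.36, without overlap) and Hhex (0.63 ± 0.53, with overlap) had higher means there. The list had sums of 3601 to 4322 and 2323 to 3212. The part of such cells in the rise of the members was not tested.

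Other genes of the gamma-delta programmes were counted from lists chosen with earlier results of these data known. Of 11 tested genes of the response to the receptor signal 4 rose and 0 fell, where 7.94% of all tested genes rose and 10.9% fell. The median log2 change of 0.94 was that of Egr3. That gene was rare (means 25.5 and 45.5) and did not pass, with an interval of -0.63 to 2.51. Cd5 had the smallest p of them, followed by Egr2, the EGR factor downstream of ERK, which went from 274.6, 128.0 and 113.0 to 404.2, 429.2 and 1009.5 (log2 change 1.81 ± 0.40, limma adjusted p = 0.0119). Nab2, a corepressor of EGR factors, rose by 0.63 ± 0.16 and Egr1 by 1.44 ± 0.43 (limma adjusted p = 0.0214 and 0.0424), but these calls held in 14 and 11 of 20 alternatives. The call of Egr1 failed with edgeR and DESeq2 and on leaving out any library but wild-type replicate 1 (up to 0.136). That of Nab2 failed without wild-type replicate 2 or 3 or mutant replicate 2 or 3 (up to 0.0865). Id3, the inhibitor that acts below EGR in this pathway, was at 5226 ± 279 and 5779 ± 1894 (log2 change 0.09 ± 0.21). Egr1 and Egr2 were highest, within their genotypes, in the libraries with the highest early response sums, wild-type replicate 1 and mutant replicate 3, and the part of handling was not tested.

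In the interleukin-17 programme 3 of 10 tested genes rose and 0 fell, with a median of 0.39. Batf, an AP-1 factor of effector T cells, went from 729.6, 722.9 and 678.9 to 1411, 1324 and 1339 (1.91-fold, limma adjusted p = 0.000823). Relb, an NF-kappaB subunit, rose 1.84-fold (199.5 ± 2.55 to 367.9 ± 54.8, limma adjusted p = 0.00925). Rora did not pass (0.52 ± 0.21, limma adjusted p = 0.112). The end products were scarce: Il17f averaged 10.3 in each genotype and did not pass (-0.33 ± 0.71), and Il23r, with means of 8.92 and 0.368, was not tested.

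In the interferon-gamma programme 5 of 12 tested genes rose and 1 fell, with a median of 0.49. Those that rose were Cd27, a costimulatory receptor (log2 change 0.48 ± 0.09), Stat4, the interleukin-12 response factor (0.61 ± 0.13), the cytotoxic granule gene Nkg7 (1.08 ± 0.24), the interleukin-12 receptor gene Il12rb2 (0.50 ± 0.15) and the chemokine gene Xcl1. The call of Il12rb2 failed without wild-type replicate 1 or 2 or mutant replicate 2 or 3. Xcl1 went from 11.7, 3.82 and 5.34 to 36.9, 29.0 and 57.4 (2.47 ± 0.54, limma adjusted p = 0.0118, and 0.0501 without mutant replicate 3). Cd44, an adhesion receptor lost between DN2 and DN3, fell 2.72-fold (180.3 ± 35.2 to 66.3 ± 19.5, limma adjusted p = 0.00661), a call that failed without both wild-type replicate 1 and mutant replicate 3 (0.0666). Tbx21, which encodes T-bet, did not pass (38.2 ± 19.3 and 30.5 ± 11.6). Ifng itself had 802.7, 226.3 and 197.5 normalised reads in wild-type libraries against 736.6, 672.7 and 1557 in mutant ones, which overlap. It did not pass (log2 change 1.47 ± 0.49, limma adjusted p = 0.0624), and was called higher without wild-type replicate 1 (2.11, adjusted p = 0.00601).

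In the innate-like list 7 of 11 tested genes rose and 0 fell, with a median of 0.64. Tox2, an HMG-box factor, went from 355.2, 435.4 and 283.8 to 1668, 1474 and 1955, a 4.74-fold rise (log2 change 2.26 ± 0.18, limma adjusted p = 0.000106). Slamf1, a receptor of the SLAM family, rose 2.47-fold, from 558.8, 542.4 and 419.9 to 1329.7, 1213 and 1215 (limma adjusted p = 0.000487). Tox and Gata3 rose by 0.78 ± 0.11 and 0.64 ± 0.10, as did Slamf6, Id2 and Sh2d1a (0.64 to 1.25). Genes of the alpha-beta route and of Notch signalling rose in 5 of 13 cases, namely Dtx1, Lef1, Il2ra, Hes1 and Notch1, and Rag1 fell (median 0.32). The call of Notch1 failed without wild-type replicate 3 or mutant replicate 2, and that of Hes1 without wild-type replicate 2 or 3 or mutant replicate 1 or 3. Called rises were thus found in lists of both lineages.

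**Figure D5:**
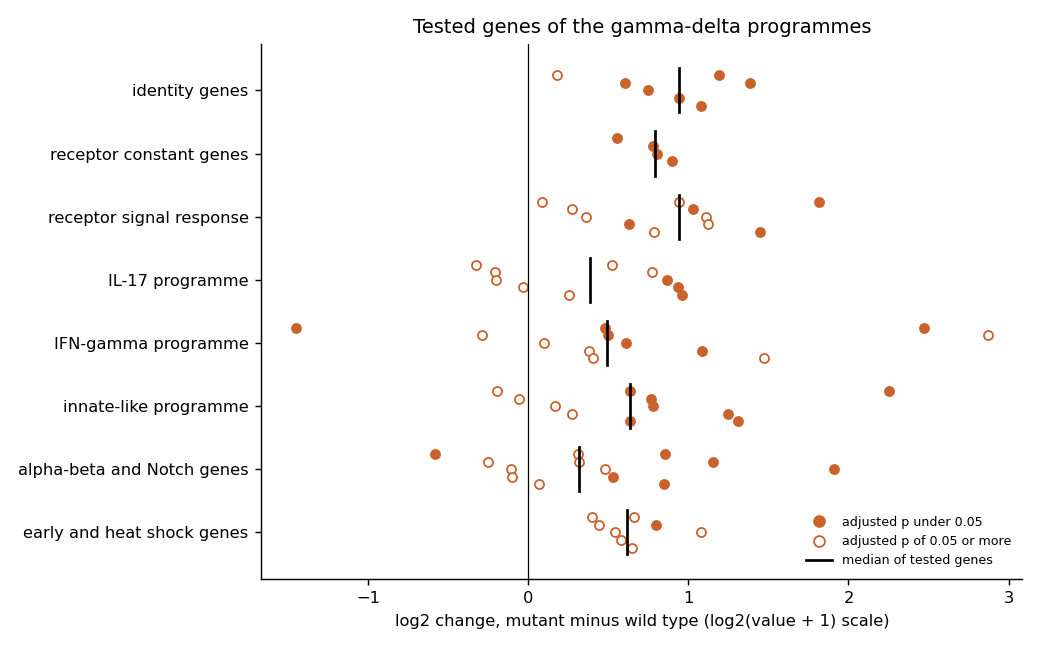
Log2 change (horizontal axis, mutant minus wild type) of each tested gene by list, filled where the limma adjusted p was under 0.05 and open otherwise, with a black line at the median of each list. The medians run from 0.32 for alpha-beta and Notch genes to 0.94 for the identity genes and the receptor signal response, with early and heat shock genes at 0.62.

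The 6 members that rose lie on chromosomes 1, 5, 7, 8, 14 and 16, and none is on chromosome 15, which carries Myc. Of the 16 nearest tested protein-coding genes on either side of the 8 members, 3 rose and 3 fell. Those that rose were Tec beside Txk, Cdyl2 at 867 kb from Maf (0.67 ± 0.15), and Olfr524, an olfactory receptor gene 12.3 kb from Cd163l1 on the side away from 5830411N06Rik (1.14 ± 0.14, limma adjusted p = 0.00071). Those that fell were Snrpe near Sox13 (-0.31 ± 0.09), Usp28 near Zbtb16 (-0.42 ± 0.13) and Gm11361 near Sox4 (-0.70 ± 0.17). Apart from Tec, these neighbours were not refitted under the alternatives. No neighbour of Sox13, Blk or Etv5 was called higher. Fam167a, 19.4 kb from Blk, had a log2 change of 0.43 ± 0.16 (limma adjusted p = 0.0887).

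Genes with the most similar pattern over the 6 libraries were taken as the 3 whose centred log2 values lay closest to a member's by root mean square difference, among 13370 genes. For Sox13 these were Shank1, 9930012K11Rik and 4921531C22Rik, at 0.0403 to 0.0515 log2 units. For Blk they were 1810062O18Rik, Mir142hg and Lbh (0.0316 to 0.0572). Etv5 was closest to 1700001G11Rik, Nf1 and Cblb, Maf to Gm5511, Gm47863 and Bhlhe40, Cd163l1 to Il18bp, Gm24924 and Gm37169, and Txk to Gm47138, D630030B08Rik and Gm45153. No member was among the 3 nearest of another. This says little about the members, since 13370 genes were compared for 3 places over only 6 libraries.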

How the data were processed

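RNA was measured in 6 DN3 thymocyte libraries, 3 for each genotype. Per the labels' protocols, total RNA was made into full-length cDNA with SMART-Seq v4 and into libraries with Nextera XT, which keep no strand. Per the submitters' processing notes, the tools were STAR 2.5.3, featureCounts and DESeq2 1.20.0 with mm10 and GRCm38; neither counting options nor a gene filter is named there. The deposited unit is a signal per gene, read counts scaled by the authors with a size factor for each library, as read from the values. These were whole multiples of 1 step per library, and 100% of 126810 values gave whole reads within 0.1 reads. Symbols came from GENCODE M21 for 21100 of the 21135 genes, and libraries of a genotype differed by more than sampling noise (chi-square over its degrees of freedom 24.4 to 50.4).

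The test was limma 3.58.1 in R 4.3.3 (trend, pseudocount 1, mean of at least 10, mutant minus wild type), and every adjusted p is from it unless the text names another tool. Folds are ratios of means and log2 changes are on the log2(value + 1) scale. The added 1 understates changes of rare genes, but a wild-type library of 0 reads, as for Zbtb16, can overstate a rise. edgeR 4.0.16 and DESeq2 1.42.0 were run on recovered reads as alternatives, beside other scalings, pseudocounts, filters, variance models, weights, a replicate block and the removal of libraries. Named were the 8 members, all tested relatives, up to 4 genes per other list with the smallest p, defining markers of other cells, Myc, and the 3 genes closest in pattern to each member that rose. A few of these genes are left unreported here. Id3, Tbx21, Ifng, Lyl1, Hhex, Spi1, Il17f, Il23r, Nkg7, Il12rb2, Hes1, Notch1, Slamf6, Id2, Sh2d1a, Trac, Kit and the genome neighbours were chosen after their values were seen. The members and lists were chosen with earlier results of these data known, so their counts are descriptions.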

Additional observations from a re-analysis of the deposited data

How the results depend on the processing

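The number of members called higher was 6 under every alternative except limma without the mean-variance trend (5), and none was called lower under any. Maf was the member concerned, with a log2 change of 1.39 and an adjusted p of 0.0508 there. Beside the members, the calls of Lck, Tec, Tcrg-C1, Tcrg-C2, Tcrg-C4, Egr1, Egr2, Nab2, Cd27, Stat4, Nkg7, Il12rb2, Sh2d1a, Notch1, Hes1, Arpp21 and Ier2 failed there too. Sox4 was not called under any of 20 alternatives (adjusted p 0.111 to 0.512). Leaving out 1 library at a time gave log2 changes of 0.52 to 0.67 for Sox13, 0.66 to 0.81 for Blk, 0.81 to 1.13 for Etv5, 1.09 to 1.56 for Maf, 0.91 to 1.24 for Cd163l1, 0.11 to 0.25 for Sox4 and 0.97 to 1.35 for Txk.

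Counts over all genes moved more than the members did. Without the mean-variance trend 1916 genes were called, 749 higher and 1167 lower. Without wild-type replicate 1 and mutant replicate 3, an alternative added after seeing the data, 1849 were called, 811 higher and 1038 lower. Leaving out 1 library gave 1905 to 2788 calls, with 819 to 1176 higher and 1086 to 1780 lower, the fewest without wild-type replicate 2. Equal library totals moved the median of all genes from 0.03 to 0.08.

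Libraries with the same replicate number did not deviate together (r = -0.02, -0.07 and -0.01 over 17815 genes). So few values cannot settle whether the number marks a pairing. With the replicate block 3066 genes were called, with 6 members higher.

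Zbtb16 held 0 to 24 reads per library and was tested without a filter only (adjusted p = 0.233).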
